A study of Homo sapiens with 4 samples.

Results

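AKT kinases, enzymes that set the level of their activating lipid and phosphatases that act on AKT itself were examined as 8 genes. They were read in the transcriptomes of A549 and HCC827 cells, of 60558 gene identifiers measured. The 8 genes were taken by name, as a list of AKT paralogs, PI3K subunits and opposing phosphatases: AKT1, AKT2, PIK3CA, PIK3CB, PIK3R1, INPP4B, PHLPP1 and PHLPP2. All 8 were found once in every library. A549 and HCC827 are established human lung adenocarcinoma (LAD) cell lines, and each was transduced either with a control vector or with myr-AKT1, a constitutively active AKT1 held at the membrane by an added myristoylation signal. Each line gave 1 vector library and 1 myr-AKT1 library, so that 4 RNA sequencing libraries were compared, with no time point or drug given. The sources used here do not say whether the transduced cells were a pool or a clone.

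Class I PI3K is a heterodimer of a catalytic and a regulatory subunit, which phosphorylates the membrane lipid PIP2 to PIP3, and PIP3 recruits AKT through its PH domain so that PDK1 and mTORC2 can phosphorylate it. The pathway is opposed at separate steps. INPP4B removes a phosphate from PI(3,4)P2, a lipid made from PIP3 that also binds AKT, and the PHLPP phosphatases remove phosphate from AKT itself. In LAD the pathway is often driven by mutated EGFR, as in HCC827 cells. Because myr-AKT1 reaches the membrane without PIP3, the genes described here stand upstream of, beside or directly opposed to the introduced kinase.

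Reads per library ranged from 16322183 to 33530317, and each of the 8 genes had between 699 and 6719 reads in every library. Normalized counts are read counts divided by 1 size factor per library, set by the authors within each cell line. A log2 fold change sets the myr-AKT1 library over the vector library of that line, and the interval beside it is the 95% exact interval of the counts, which covers counting error and not the difference between cultures. No difference within a cell line therefore has a replicate check. The line labels were checked first. CDKN2A, which A549 cells are known to lack, had 0 reads in both A549 libraries and 2055 and 4344 reads in the HCC827 libraries, and EGFR, amplified in HCC827 cells, had 7500 normalized counts in A549-vector and 153714 in HCC827-vector cells. EGFR was at 68423 in HCC827-myr-AKT1 cells, a log2 fold change of -1.17 (-1.18 to -1.15) against 0.17 (0.13 to 0.22) in A549 cells, and the part of this difference between the HCC827 libraries in the results below was not tested. All 5 epithelial markers examined had reads in every library. Their summed share of reads was 0.662% in A549-vector and 0.577% in A549-myr-AKT1 cells, and 0.594% and 0.329% in the corresponding HCC827 libraries. The log2 fold changes of KRT8, KRT18, KRT7, EPCAM and CDH1 were -1.81, -1.75, -0.35, -0.22 and 0.31 in HCC827 cells. In A549 cells they were -0.36, -0.38, 0.23, 0.59 and 1.39, in the same order. Of 8 markers of leukocytes, endothelial cells and fibroblasts, CD3E and COL1A2 were at 0 in all libraries, and the summed normalized count of the list was 947 in A549-myr-AKT1 against 91.7 in A549-vector cells and 317 in HCC827-myr-AKT1 against 136 in HCC827-vector cells. Of these sums, COL1A1 alone gave 765 against 76.8 in A549 cells, and 179 against 44.5 in HCC827 cells. In A549 cells PECAM1 had 69.9 against 11.4, CDH5 67.6 against 0.873 and CD68 21.8 against 1.75. DCN had 14.9 against 0 there, and PTPRC 8.02 against 0.873. In HCC827 cells PECAM1 had 106 against 62, CDH5 13.8 against 6.36 and CD68 15.1 against 15.1. DCN had 3.77 against 3.97 there, and PTPRC 0 against 3.97. The sums were at most 0.0033% of the reads of a library, and the part of either marker list in the results was not tested. In bulk RNA, fewer cells that express a gene and less of its RNA per cell cannot be told apart.

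Before the values, the short stretches of promoter in which either of 2 motifs was found are shown, since FOXO factors are the best-known transcription factors that AKT inactivates and STAT3 is the factor the study followed. The 250 bases before each RefSeq start of the 8 genes (19 windows, GRCh38.p14) were searched on both strands for the FOXO core TGTTTAC and for the STAT palindrome TTCNNNGAA. Only 2 windows held a match, 1 for each motif. The capitals mark the matched letters, and both stretches are written 5′ to 3′ along the strand of the gene.
PIK3CA, FOXO core, chr3:179148197-179148226, plus strand: agttcgttgttTGTTTACacgatgtgagcg
INPP4B, STAT palindrome, chr4:142403148-142403177, minus strand: atagaactatTTCCTTGAAaaacagactca
The FOXO match of PIK3CA lay at positions -149 to -143 from the RefSeq start, and 23 of the 30 bases shown fall in a GENCODE exon, because GENCODE starts the gene further upstream. The STAT match of INPP4B lay at positions -34 to -26 from a RefSeq start inside the gene, outside GENCODE exons. Among all 35116 promoter windows of the same length, 2.98% held the FOXO core and 6.57% held the STAT palindrome. A match is a description of letters, its absence says only that these letters are not in the window, and no binding was measured here.

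AKT1 was higher in the myr-AKT1 library of both lines, and AKT2 was slightly lower. AKT1 (ENSG00000142208, chromosome 14, 104769349 to 104795751, minus strand, build GRCh38) reached 6297 normalized counts in A549-myr-AKT1 against 4243 in A549-vector cells, and 4805 against 2175 in HCC827 cells. On a common scaling of the 4 libraries, too, both myr-AKT1 values lay above both vector values. The files give 1 value per gene, so that construct-derived and endogenous AKT1 reads cannot be told apart. This gave a log2 fold change of 0.57 (0.51 to 0.63) for A549 and 1.14 (1.07 to 1.21) for HCC827, a difference between the lines of 0.57 (counting interval 0.48 to 0.66). In HCC827 cells AKT1 was past a 2-fold change, as were 10.3% of the 13098 expressed genes in the upward direction, where an expressed gene averages at least 50 normalized counts over the pair of libraries. In A549 cells 20.2% of 13971 expressed genes had a larger log2 fold change than AKT1.

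AKT2 (ENSG00000105221, chromosome 19, 40230317 to 40285536, minus strand), the paralog best known for insulin-stimulated glucose uptake, had 4279 normalized counts in A549-myr-AKT1 against 4667 in A549-vector cells, and 2148 against 2433 in HCC827 cells. Its log2 fold changes were -0.13 (-0.19 to -0.06) and -0.18 (-0.27 to -0.09). A lower log2 fold change was held by 46.3% of expressed genes in A549 and 42.8% in HCC827 cells, so AKT2 lay near the middle. The A549 value came to -0.02 (-0.08 to 0.04) with size factors estimated over all 4 libraries, so whether its interval holds 0 there rests on the scaling. That scaling moved every A549 value up by 0.10 and every HCC827 value up by 0.05.

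The balance of the paralogs inside a library does not depend on any scaling. AKT1 took 47.6% of the reads of AKT1 and AKT2 in A549-vector cells (95% Clopper-Pearson interval 46.7 to 48.6) and 47.2% in HCC827-vector cells (45.9 to 48.5), so that the 2 vector libraries overlapped. With myr-AKT1 the shares were 59.5% for A549 (58.5 to 60.5) and 69.1% for HCC827 (67.9 to 70.3).

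**Figure D1:**
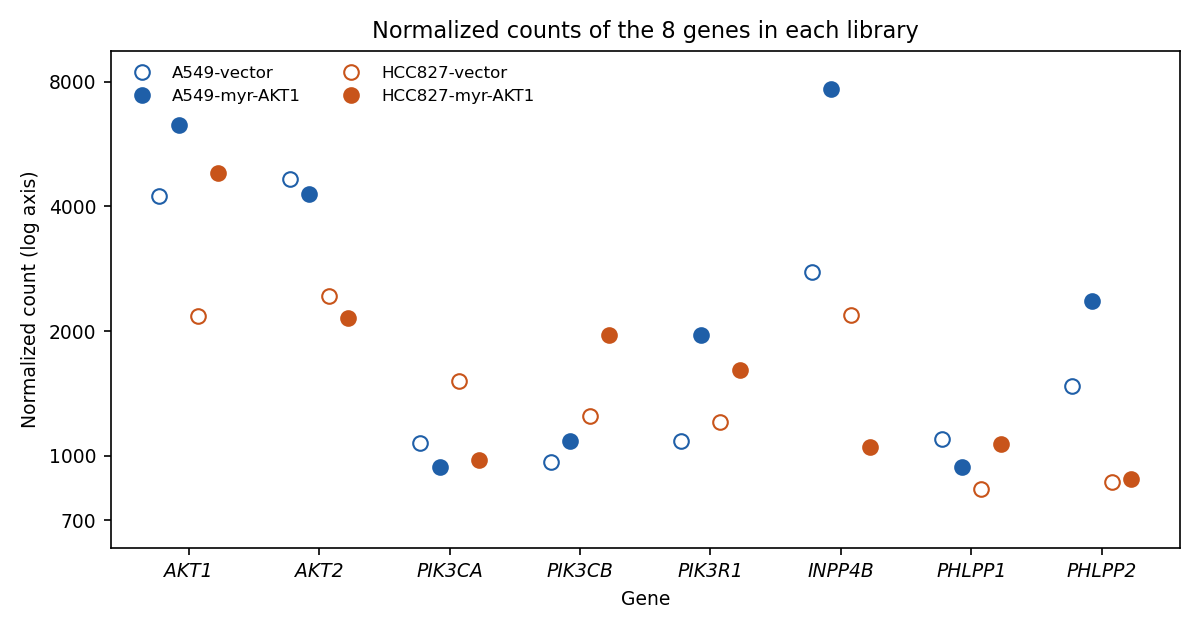
Normalized counts of the 8 genes (x axis) in each of the 4 libraries on a log y axis, with open circles for vector, filled circles for myr-AKT1, blue for A549 and orange for HCC827; the libraries were scaled within each line, so only points of the same colour are on a common scale. INPP4B goes from 2777 with vector to 7694 with myr-AKT1 in A549 cells, and from 2190 to 1051 in HCC827 cells.

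The catalytic subunits of PI3K went in opposite directions, with PIK3CA lower and PIK3CB higher in the myr-AKT1 library of each line. PIK3CA (ENSG00000121879, chromosome 3, 179148114 to 179240093, plus strand) encodes p110α, the subunit that receptor tyrosine kinases use most and that carries hotspot mutations in many cancers. It had 941 normalized counts in A549-myr-AKT1 against 1072 in A549-vector cells, and 978 against 1519 in HCC827 cells. The HCC827-vector library stood above the other 3. PIK3CA was thus at a log2 fold change of -0.19 (-0.32 to -0.06) for A549 and -0.64 (-0.76 to -0.51) for HCC827, and only the HCC827 interval stayed below 0 under every scaling tried, the A549 value being -0.09 (-0.21 to 0.04) with size factors over all 4 libraries. Of the 3204 coding bases of PIK3CA, 17.9% aligned at an identity of at least 95% to chromosome 22 as well, which limits how surely reads there are placed. On the opposite strand, KCNMB3 shares 3403 exonic bases with PIK3CA. It had 50 reads in HCC827-myr-AKT1 against 231 in HCC827-vector cells, and 163 against 124 in A549 cells, and its part in the PIK3CA values was not tested. The strand setting of the counting is not given in the sources used here.

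PIK3CB (ENSG00000051382, chromosome 3, 138652698 to 138834928, minus strand) encodes p110β, the subunit that G protein-coupled receptors draw on. It had 1086 normalized counts in A549-myr-AKT1 against 966 in A549-vector cells, and 1960 against 1252 in HCC827 cells. Its log2 fold changes were 0.17 (0.04 to 0.30) and 0.65 (0.55 to 0.75), and both intervals stayed above 0 under the 3 other scalings. For both catalytic genes the HCC827 change was the larger. The HCC827 minus A549 difference in log2 fold change was -0.45 (counting interval -0.62 to -0.27) for PIK3CA and 0.48 (0.32 to 0.64) for PIK3CB.

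Within a library, PIK3CA held 52.6% of the reads of PIK3CA and PIK3CB in A549-vector (50.6 to 54.7) and 54.8% in HCC827-vector cells (53.1 to 56.5). With myr-AKT1 it held 46.4% in A549 (44.1 to 48.8) and 33.3% in HCC827 cells (31.4 to 35.2). PIK3CA thus passed from the larger to the smaller share of reads in both lines, and neither pair of intervals overlapped. The log2 change of the PIK3CB to PIK3CA read ratio, which needs no scaling and no gene length, was 0.36 (0.18 to 0.54) in A549 and 1.28 (1.13 to 1.44) in HCC827 cells. Per kilobase of exon PIK3CA was already the smaller of the pair in the vector libraries, with 33.6% in A549 and 35.6% in HCC827 cells. Per kilobase of the canonical transcript it was nearer to even there, with 42.9% and 45.1%.

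**Figure D2:**
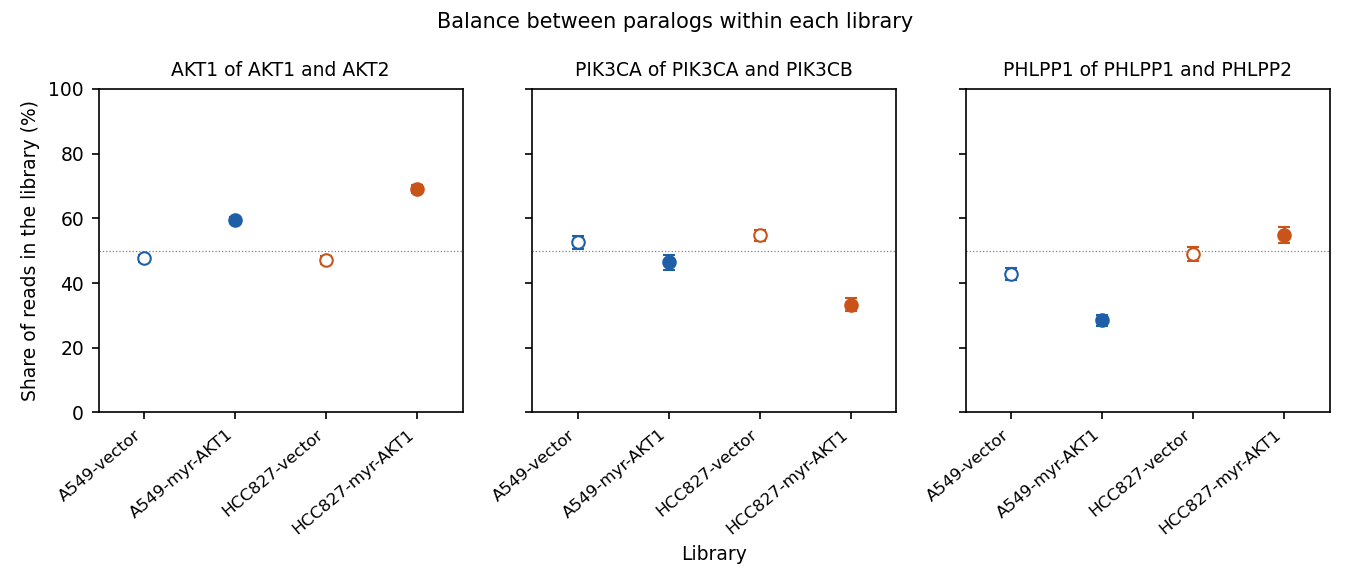
Share of reads (y axis, %) that fell to AKT1, PIK3CA or PHLPP1 out of each paralog pair, for the 4 libraries (x axis), with 95% Clopper-Pearson intervals as bars and a dotted line at 50%. The AKT1 share is higher and the PIK3CA share lower with myr-AKT1 in both lines, whereas the PHLPP1 share is lower in A549 and higher in HCC827 cells.

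PIK3R1 (ENSG00000145675, chromosome 5, 68215740 to 68301821, plus strand), which encodes the regulatory subunits p85α, p55α and p50α that stabilise and restrain the catalytic subunit, was higher with myr-AKT1 in both lines. It had 1963 normalized counts in A549-myr-AKT1 against 1085 in A549-vector cells, and 1614 against 1205 in HCC827 cells. Both myr-AKT1 values were above both vector values, also on the common scaling. PIK3R1 had log2 fold changes of 0.85 (0.75 to 0.96) in A549 and 0.42 (0.31 to 0.53) in HCC827 cells, and 13.9% and 25.4% of expressed genes, respectively, had a larger one. Against PIK3CA the log2 change of the read ratio was 1.04 in A549 (0.88 to 1.21) and 1.06 in HCC827 cells (0.90 to 1.22). Against PIK3CB it was 0.69 (0.52 to 0.85) in A549 and -0.23 (-0.37 to -0.08) in HCC827 cells. PIK3R1 took 34.7% of the reads of the 3 PI3K subunit genes in A549-vector and 49.2% in A549-myr-AKT1 cells, and 30.3% and 35.5% in the corresponding HCC827 libraries.

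INPP4B showed the widest range of the 8 genes on the common scaling and had opposite signs in the 2 lines. INPP4B (ENSG00000109452, chromosome 4, 142023160 to 142847432, minus strand) is a lipid 4-phosphatase with a tumour suppressor role in some epithelial cancers and a tumour-promoting role in others. It had 7694 normalized counts in A549-myr-AKT1 against 2777 in A549-vector cells, a 2.77-fold higher level. In HCC827 cells it had 1051 with myr-AKT1 against 2190 with vector, a 2.08-fold lower level. The vector libraries lay close to each other, and the myr-AKT1 libraries lay at the 2 ends. On a common scaling of all 4 libraries the log2 ratio of HCC827-vector to A549-vector was 0.07 (-0.002 to 0.15). INPP4B thus had a log2 fold change of 1.47 (1.41 to 1.53) for A549 and -1.06 (-1.17 to -0.95) for HCC827, and the HCC827 minus A549 difference was -2.53 (counting interval -2.66 to -2.40). The signs held under all 3 other scalings, although the HCC827 value of -0.98 with total reads no longer passed 2-fold.

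A 2-fold change was passed upwards by 11.3% and downwards by 7.89% of expressed genes in A549 cells, and upwards and downwards by 10.3% each in HCC827 cells. INPP4B was the only 1 of the 8 genes past 2-fold in A549 cells, and INPP4B and AKT1 were the 2 genes past it in HCC827 cells. Passing 2-fold in opposite directions in the 2 lines was less frequent, at 0.622% of the 12053 genes expressed in both lines. This class was not planned in advance, and with total reads INPP4B, at -0.98 in HCC827 cells, fell outside it. None of the 8 genes passed a 4-fold change, a log2 fold change of 2, in either line, where 3.8% of expressed genes were past it upwards and 2.34% downwards in A549 cells and 2.71% and 1.86% in HCC827 cells.

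**Figure D3:**
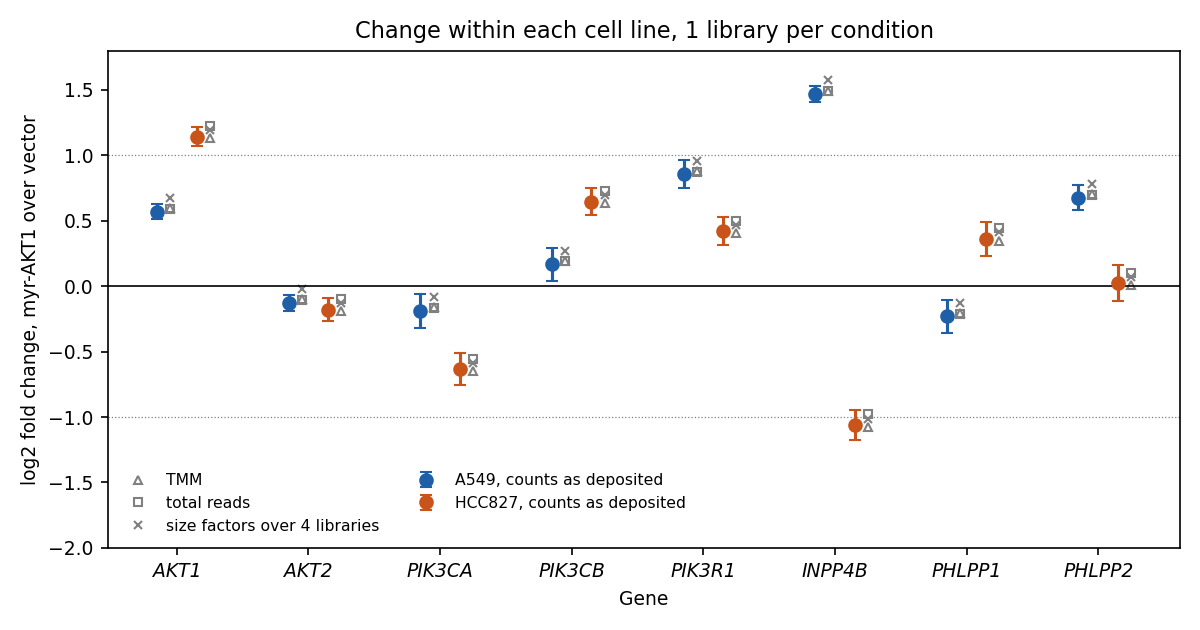
Log2 fold change of myr-AKT1 over vector (y axis) for each of the 8 genes (x axis) in A549 (blue) and HCC827 (orange) cells, with 95% counting intervals as bars, grey symbols for 3 other scalings of the same reads and dotted lines at a 2-fold change. INPP4B stands at 1.47 and -1.06, PHLPP1 at -0.23 and 0.36, and the other genes have the same sign in both lines.

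The 2 phosphatases that act on AKT itself differed between the lines as well. PHLPP1 (ENSG00000081913, chromosome 18, 62715541 to 62980433, plus strand) and PHLPP2 (ENSG00000040199, chromosome 16, 71637835 to 71724701, minus strand) dephosphorylate the hydrophobic motif of AKT, and are known to favour different AKT paralogs. PHLPP1 had 938 normalized counts in A549-myr-AKT1 against 1100 in A549-vector cells, and 1070 against 832 in HCC827 cells. PHLPP1 had log2 fold changes of -0.23 (-0.36 to -0.10) for A549 and 0.36 (0.23 to 0.49) for HCC827. PHLPP2 had 2359 normalized counts in A549-myr-AKT1 against 1476 in A549-vector cells, and 880 against 865 in HCC827 cells. The A549-myr-AKT1 library stood above the other 3. PHLPP2 had log2 fold changes of 0.68 (0.58 to 0.77) for A549 and 0.02 (-0.12 to 0.16) for HCC827, where no difference was detectable at this depth.

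PHLPP1 held 42.7% of the reads of the pair in A549-vector (40.9 to 44.5) and 28.4% in A549-myr-AKT1 cells (26.8 to 30.1). In HCC827 cells it held 49.0% with vector (46.9 to 51.2) and 54.9% with myr-AKT1 (52.4 to 57.4). The PHLPP2 to PHLPP1 read ratio thus changed by 0.91 (0.75 to 1.06) on the log2 scale in A549 and by -0.34 (-0.53 to -0.15) in HCC827 cells. MARVELD3, on the opposite strand, shares 1068 exonic bases with PHLPP2. It had 690 and 873 reads in HCC827-myr-AKT1 and HCC827-vector cells, where PHLPP2 had 699 and 1089, and 102 and 48 in the A549 libraries, and its part in the PHLPP2 values was not tested. Of the coding bases of PHLPP2, 8.26% aligned elsewhere on chromosome 16 at an identity of at least 95%.

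Levels of different genes can be compared only per length. Per kilobase of merged exons, on the common scaling, AKT1 was the highest of the 8 genes in every library, with 323 in A549-vector, 515 in A549-myr-AKT1, 221 in HCC827-vector and 504 in HCC827-myr-AKT1 cells. With myr-AKT1, these reads may include those of the construct, whose length is not given, so the AKT1 values there are not levels of the endogenous gene. PIK3CA was the lowest in 3 libraries, with 52.1 in A549-vector, 49.05 in A549-myr-AKT1 and 65.4 in HCC827-myr-AKT1 cells, while PHLPP2 was the lowest in HCC827-vector cells at 77.04, next to PIK3R1 at 82.1. Between these, PIK3CB, PHLPP1 and PHLPP2 in A549-vector cells differed little, with 103, 101 and 98.6 per kilobase. Per kilobase of the canonical transcript AKT1 was again the highest in all 4 libraries, and 18 of the 32 places in the 4 rankings stayed as they were. The vector libraries of the lines differed in both catalytic genes on the common scaling, with a log2 ratio of HCC827 to A549 of 0.92 (0.81 to 1.02) for PIK3CA and 0.79 (0.68 to 0.90) for PIK3CB. For AKT1 and AKT2 it was -0.55 (-0.62 to -0.48) and -0.53 (-0.59 to -0.46), and for PHLPP1 0.01 (-0.11 to 0.13).

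Over the 8 genes, 3 (AKT1, PIK3CB and PIK3R1) had intervals above 0 in both lines, 2 (AKT2 and PIK3CA) had intervals below 0 in both, 2 (INPP4B and PHLPP1) had intervals on opposite sides of 0, and the interval of PHLPP2 included 0 in HCC827 cells. In A549 cells 5 intervals were above and 3 below 0, and in HCC827 cells 4 and 3, where 35.5% and 43.6% of expressed A549 genes and 36.0% and 43.0% of expressed HCC827 genes were above and below. At these read depths agreement and opposition of the lines were frequent among the genes expressed in both lines, with 19.4% above in both, 29.5% below in both and 16.9% on opposite sides. The median log2 fold change of the 8 genes was 0.37 in A549 and 0.19 in HCC827 cells, beside -0.07 and -0.06 for all expressed genes. The AKT1 value in these counts and medians may include construct reads.

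The test across both lines was limma on log2(normalized count + 1) with the cell line as a block. It asks whether a change is shared beyond a spread, with 1 residual degree of freedom per gene. That spread was drawn towards a trend over all genes tested. The SEs and p-values are therefore not each gene's own spread between the 2 lines. The test called none of the 8 genes at a Benjamini-Hochberg adjusted p under 0.05, where it called 1.29% of 19314 genes higher and 1.73% lower. The lowest adjusted p of the 8 was that of AKT1, at 0.134 from limma, with a log2 fold change of 0.86 (SE 0.258) and a higher value in 2 of 2 lines. AKT1 is also the introduced gene, and its value may include construct reads, so no result for it here shows a change of the endogenous gene. PIK3R1 followed, at 0.252 from limma, with a log2 fold change of 0.64 (SE 0.264). These 2 genes had an unadjusted p under 0.05. The quasi-likelihood test in edgeR also called 0 of the 8 genes, where it called 1.01% of all genes higher and 1.18% lower. DESeq2 called 1, AKT1, with an adjusted p of 0.0409, where it called 4.41% of 14071 genes higher and 3.68% lower, and limma without the filter called AKT1 too, where it called 3.33% of 33056 genes higher and 2.7% lower. Over the 5 alternatives the adjusted p of AKT1 ranged from 0.0325 to 1. For INPP4B, with its opposite signs, limma gave 0.21 (SE 0.513, adjusted p = 0.88).

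The other genes of the pathway, in lists of 47 genes chosen by function, were described in the same way. Of these, 41 were expressed in A549 and 37 in HCC827 cells. In A549 cells 5 were past 2-fold upwards and 0 downwards, and in HCC827 cells again 5 and 0, where 11.3% and 10.3% of expressed genes were past it upwards and 7.89% and 10.3% downwards. Of the 42 genes of the lists tested across both lines, 1 was called by limma, where 1.29% of 19314 genes were called higher and 1.73% lower. The called gene was PRR5L, a protein that binds mTORC2, the complex that phosphorylates AKT. PRR5L had 1283 normalized counts in A549-myr-AKT1 against 410 in A549-vector cells, and 687 against 215 in HCC827 cells. Its log2 fold change was 1.66 in limma (SE 0.306, adjusted p = 0.0342), higher in 2 of 2 lines, and the adjusted p was 0.0432 from edgeR, 1.2e-04 from DESeq2, 2.3e-04 from limma without a filter, 0.106 with a pseudocount of 0.1 and 1 without the block.

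PIK3IP1, a membrane protein that binds and inhibits the p110 subunits, had the largest log2 fold change of the expressed pathway genes in HCC827 cells. It was at 226 normalized counts in HCC827-myr-AKT1 against 15.9 in vector cells, or 3.83 (3.16 to 4.58) on the log2 scale, and at 167 against 51.5 in A549 cells, or 1.70 (1.25 to 2.16). Its adjusted p was 0.0743 from limma. PPP2R5B, a regulatory subunit of the phosphatase PP2A, had log2 fold changes of 1.44 (1.24 to 1.65) and 1.07 (0.85 to 1.29), with an adjusted p of 0.102 from limma. DESeq2 called both, with an adjusted p of 0.0239 for PIK3IP1 and 0.029 for PPP2R5B, as did limma without the filter, whereas edgeR called neither. Among all genes tested, DESeq2 called 4.41% higher and limma without the filter 3.33%. In A549 cells the other genes past 2-fold were the lipid phosphatases INPP5D, with 150 against 35.8 normalized counts, and INPP5J, with 112 against 41.9. In HCC827 cells both were under the expression limit, INPP5D with 3 reads against 14, too few to give it a direction (log2 interval -4.00 to 0.28), and INPP5J with 21.4 normalized counts against 6.36. The other genes past 2-fold in HCC827 cells were DEPTOR, an mTOR inhibitor, at 1.05 on the log2 scale (0.78 to 1.32), and TRIB3, a pseudokinase that binds AKT, at 1.48 (1.40 to 1.56) against 0.06 (-0.04 to 0.17) in A549 cells. PDPK1, which encodes PDK1, had -0.02 (-0.14 to 0.11) in A549 and -0.03 (-0.16 to 0.10) in HCC827 cells.

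**Figure D4:**
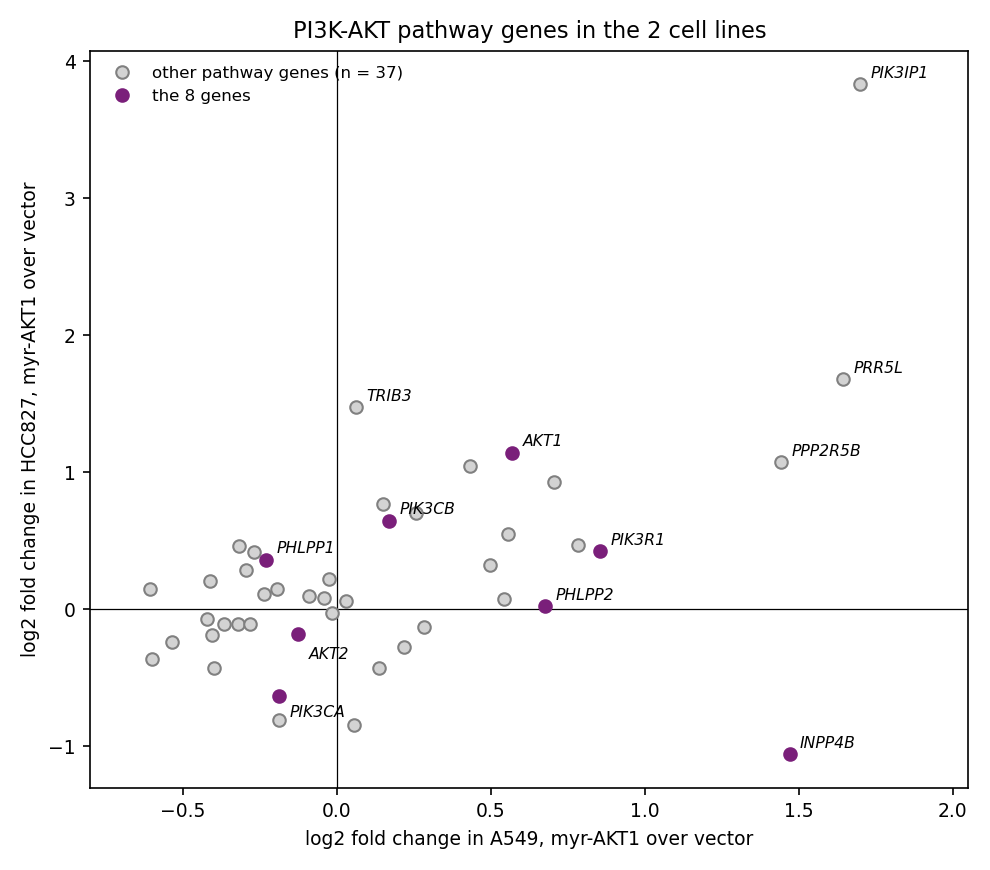
Log2 fold change of myr-AKT1 over vector in A549 (x axis) against that in HCC827 cells (y axis) for the 8 genes (purple) and the 37 other pathway genes expressed in both lines (grey). Of the genes drawn, INPP4B is at the lower right, with 1.47 and -1.06, and PIK3IP1 at the upper right, with 1.70 and 3.83.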

How the data were processed

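The authors trimmed and masked the reads, mapped them to hg38 (Bowtie2) and derived gene values by HTSeq, whose strand setting is not given in the sources used here. Bowtie2 does not split reads over introns, so reads across exon junctions may be missing. The methods name polyadenylated RNA and the labels removal of ribosomal RNA. The methods name RPKM, but the deposited signal steps by 1 constant per library, which makes it a read count over a size factor. Dividing by that constant gave reads within 0.001 of a whole number for at least 99.996% of genes with reads. Symbols, exon lengths and coordinates came from GENCODE 44, which held 60261 of the 60558 identifiers, and promoters from RefSeq (GRCh38.p14). Coding sequences were aligned to GRCh38 with BLAST+ 2.17.0 (identity of at least 95%, at least 100 bases).

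Log2 fold changes used no pseudocount, but fewer than 3 reads of a gene in a library were set to 3. Their 95% Clopper-Pearson intervals came from the unchanged reads. Changes of ratios and differences between lines used a normal approximation. Background genes had a mean normalized count of at least 50. With 1 library per condition, the test used limma 3.58.1 on all 4 libraries with genes kept by filterByExpr, a trend and cell line as a block, and edgeR 4.0.16 and DESeq2 1.42.0 on recovered reads (R 4.3.3, Python 3.11.15). The test was tried on simulated data with equal changes in both lines, which does not cover genes whose change differs between the lines. Whether the libraries came from separate cultures is not stated, so p-values measure only the spread between these libraries, partly pooled over genes. The members, lists and motifs were chosen with earlier results of these data known. The other pathway genes named were those past 2-fold with a mean of at least 50 in a line, with PDPK1, and 2 genes of the lists are not reported here. Ratios of reads and the share of PIK3R1 were added after seeing the data. The share of genes past 2-fold in opposite directions was not planned in advance.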

Additional observations from a re-analysis of the deposited data

Results flagged for a closer look

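The myr-AKT1 library differed from the vector library in opposite directions in A549 and HCC827 cells for INPP4B and PHLPP1, with both counting intervals away from 0, and kept these signs under the 3 other scalings. INPP4B was at 1.47 in A549 and -1.06 in HCC827 cells, and PHLPP1 at -0.23 and 0.36. With 1 library per condition these differences were not tested, and opposite intervals were seen for 16.9% of the 12053 genes expressed in both lines. Under size factors over all 4 libraries the A549 interval of PHLPP1 ended at -7.0e-05.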

How the results depend on the processing

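Of the 16 log2 fold changes of the 8 genes, all 16 stayed within their counting interval with TMM and with a pseudocount of 1, 15 with total reads and 12 with size factors over all 4 libraries, and none reversed. AKT1 came to 0.67 in A549 cells with size factors over all 4 libraries and to 1.22 in HCC827 cells with total reads. The shares per kilobase of exon with myr-AKT1 and with vector in A549, then likewise in HCC827 cells, were 68.1%, 56.9%, 76.5% and 56.5% for AKT1, 28.3%, 33.6%, 18.5% and 35.6% for PIK3CA, and 35.4%, 50.7%, 62.7% and 57.03% for PHLPP1. Per kilobase of the canonical transcript those of PIK3CA were, in the same order, 37.0%, 42.9%, 25.2% and 45.1%. The AKT1 shares with myr-AKT1 use the exon length of the gene, although construct reads may be among them. At a log2 fold change of 2 the numbers of the 8 genes past it were 0 higher in A549 cells, and 0 higher and 0 lower in HCC827 cells; with total reads 0 were past 2-fold lower in HCC827 cells. When every gene detected by 1 read or more in each HCC827 library was counted, 15.5% were past 2-fold upwards in HCC827 cells. The fit across lines called 250 genes higher and 335 lower, 0 and 0 with a pseudocount of 0.1 or without the cell line block, 196 and 228 with edgeR on the recovered reads, 621 and 518 with DESeq2, and 1101 and 894 without the filter, where unadjusted p under 0.05 numbered 3557 in limma, 3225 in edgeR, 3184 with the smaller pseudocount and 631 without the block. The adjusted p of AKT1 was 0.0409 with DESeq2 and 0.0325 without the filter. DESeq2 gave no adjusted p for INPP5D and INPP5J. The cause of these changes was not tested. The fit pairs the libraries by cell line, and without that block the adjusted p of AKT1 was 1. The labels give no replicate numbers to pair by, and leaving out a library leaves no residual degrees of freedom.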

Other observations

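The phosphatase PP2A removes phosphate from AKT alongside the PHLPP enzymes. Its subunits were examined together with other AKT regulators in a list of 15 genes, so the counts are not those of PP2A alone. In A549 cells 14 were expressed, and their counting intervals were below 0 for 8 and above 0 for 2, with a median log2 fold change of -0.23. In HCC827 cells 13 were expressed, and the intervals were below 0 for 3 and above 0 for 9, with a median of 0.15. Among all expressed genes, 43.6% were below and 35.5% above in A549 cells, and 43.0% and 36.0% in HCC827 cells. Whether the lines differ here was not tested. TCL1A, an AKT coactivator of lymphoid cells, had 0 reads in every library.

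By Euclidean distance of centred log2 levels over the 4 libraries, the protein-coding genes nearest to AKT1 among 11014 were TMEM42 (distance 0.0886), RWDD2A (0.122) and ATP2A2 (0.125). Their log2 fold changes were 0.46, 0.42 and 0.70 in A549 and 1.11, 1.21 and 1.04 in HCC827 cells. With 4 libraries this is a description of likeness only.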
